A study of Mus musculus with 4 samples.

Results

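The G2/M and mitosis genes are 35 of the 55367 gene names counted in the series. They were taken by name: the mitotic cyclins and their kinase, the CDC25 phosphatases, the mitotic and checkpoint kinases, kinesins, centromere proteins, and proteins of the spindle and of cytokinesis. All 35 were found and all 35 passed the filter on low counts, which kept 16945 genes. The RNA came from endothelial cells of subcutaneous tumours in C57BL/6 mice. The tumours had grown from KPC cells, a mouse pancreatic cancer line. Cells that carried CD31 and lacked CD45 were sorted 48 hours after the mice were given either control Rat IgG or anti-CD93 antibody, which binds a transmembrane receptor of endothelial cells. There were 2 libraries per group, and the labels give neither the age of the mice nor whether the libraries of a group came from separate mice, and each p-value therefore reflects the spread of these libraries alone, which may be technical.

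A cell that enters mitosis first builds up CDK1 with its A- and B-type cyclins, which CDC25 phosphatases switch on. Kinases and motor proteins then assemble the spindle, and a checkpoint at the kinetochores holds the anaphase-promoting complex in check until every chromosome is attached. When the checkpoint is satisfied, this ubiquitin ligase destroys the cyclins, and the cell divides. Most of these genes are silent in resting endothelium and are read together in late cycle, so that their messages serve as a measure of how much division a tissue sample holds.

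Levels are given in CPM, a gene's reads for every 1e6 that fell on tested genes, with TMM factors applied (a scaling that sets the bulk of genes equal between libraries). They are given for control IgG replicates 1 and 2 and then for anti-CD93 replicates 1 and 2. Fold changes are log2 of anti-CD93 over control IgG with their standard error (SE). The reads assigned to genes ran from 9364294 to 17813993 per library. Control IgG replicate 2 had the fewest reads and the most detected genes, 27718 against 23796 to 25430 in the other 3 libraries, and it stands apart in the results that follow. The target gene Cd93 was at 1530, 1759, 1716 and 1514 CPM, and its message therefore gives no check of the antibody labels.

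The genes share promoter elements that the choice of members did not use. Promoters of late cell cycle genes are known for the CHR (cell cycle genes homology region), read by complexes of MuvB proteins with B-MYB, and for CCAAT boxes, bound by NF-Y. Of the 35 genes, 30 matched a RefSeq promoter of GRCm38.p6, with 32 promoters in all, each holding 250 bases before and 50 after the start site. The CHR was searched with the letters TTTGAA, with the variant TTTAAA and with the variant TTCGAA. The box was searched as CCAAT. Both strands were read, and overlapping matches were counted separately. A CHR match was in 30 of the 32 promoters (93.8%), against 28.8% of all 32851 promoters of that length. A CCAAT match was in 27 (84.4%), against 37.4%, and both together in 27 (84.4%), against 11.3%. Prc1 and Ect2 each entered with overlapping windows that held the same matches. Counted by gene, 28 of the 30 genes held a CHR match and 25 a CCAAT match, against 8609 and 11096 of all 27025 genes. In 27 of the 30 promoters with a CHR, the match nearest the start site lay within 50 bases of it. A match is a description of the letters and not of binding, and nothing in these libraries measured binding.

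**Figure D1:**
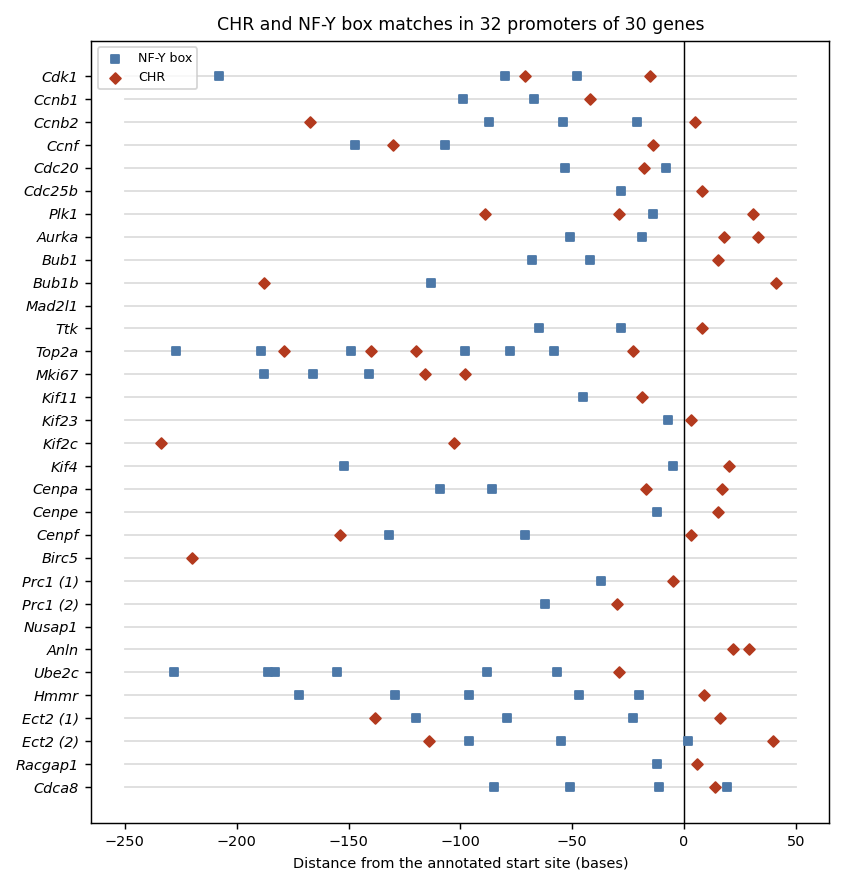
Matches to the CHR (diamonds) and the NF-Y or CCAAT box (squares) by distance in bases from the annotated start site, in 32 promoters of 30 G2/M and mitosis genes; grey lines mark the 300 bases searched and the vertical line the start site. In 27 of the 30 promoters with a CHR it lies within 50 bases of the start, with CCAAT boxes mostly before it.

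The stretches below show 10 genes that the results turn on, from 150 bases before to 30 after the start site, with CHR and CCAAT matches on either strand in capitals. They include the CDK1 and cyclin B genes, the genes of the anaphase-promoting complex, the pair with the highest levels (Mki67 and Top2a), a pair that was higher with anti-CD93 without overlap (Cenpf and Hmmr) and Ect2, and were chosen after their values were seen.
Cdk1 (chr10:69352883-69353062, minus strand, GRCm38.p6): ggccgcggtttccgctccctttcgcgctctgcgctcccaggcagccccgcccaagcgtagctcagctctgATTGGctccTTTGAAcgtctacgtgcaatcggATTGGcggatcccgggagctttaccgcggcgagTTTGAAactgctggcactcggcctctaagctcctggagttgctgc
Ccnb1 (chr13:100786457-100786636, minus strand, GRCm38.p6): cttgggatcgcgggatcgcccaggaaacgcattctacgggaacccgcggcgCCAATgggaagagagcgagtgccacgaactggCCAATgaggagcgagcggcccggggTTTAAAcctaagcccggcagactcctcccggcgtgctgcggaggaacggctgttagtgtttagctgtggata
Ccnb2 (chr9:70421525-70421704, minus strand, GRCm38.p6): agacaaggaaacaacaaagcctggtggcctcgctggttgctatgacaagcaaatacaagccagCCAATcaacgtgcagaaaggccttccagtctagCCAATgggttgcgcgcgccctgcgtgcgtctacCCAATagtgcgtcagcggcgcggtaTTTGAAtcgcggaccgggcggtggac
Cdc20 (chr4:118437314-118437493, minus strand, GRCm38.p6): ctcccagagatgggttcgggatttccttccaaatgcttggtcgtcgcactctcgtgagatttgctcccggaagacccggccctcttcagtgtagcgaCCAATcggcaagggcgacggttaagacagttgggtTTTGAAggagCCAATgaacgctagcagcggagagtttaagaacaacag
Ube2c (chr2:164769779-164769958, plus strand, GRCm38.p6): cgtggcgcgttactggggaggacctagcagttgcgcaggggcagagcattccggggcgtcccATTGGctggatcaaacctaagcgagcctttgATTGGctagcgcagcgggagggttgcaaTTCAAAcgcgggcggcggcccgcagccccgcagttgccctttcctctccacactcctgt
Mki67 (chr7:135716350-135716529, minus strand, GRCm38.p6): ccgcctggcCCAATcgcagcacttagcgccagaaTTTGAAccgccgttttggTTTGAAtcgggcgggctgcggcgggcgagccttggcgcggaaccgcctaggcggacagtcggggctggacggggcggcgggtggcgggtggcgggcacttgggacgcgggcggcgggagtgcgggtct
Top2a (chr11:99024160-99024339, minus strand, GRCm38.p6): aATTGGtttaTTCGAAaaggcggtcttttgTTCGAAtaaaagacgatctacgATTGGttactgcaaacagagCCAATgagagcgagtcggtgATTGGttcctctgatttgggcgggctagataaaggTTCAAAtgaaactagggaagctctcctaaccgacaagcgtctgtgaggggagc
Cenpf (chr1:189688057-189688236, minus strand, GRCm38.p6): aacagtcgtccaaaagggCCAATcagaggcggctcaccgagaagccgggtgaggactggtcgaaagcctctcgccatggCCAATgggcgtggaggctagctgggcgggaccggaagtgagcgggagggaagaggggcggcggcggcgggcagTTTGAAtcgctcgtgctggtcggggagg
Hmmr (chr11:40733408-40733587, minus strand, GRCm38.p6): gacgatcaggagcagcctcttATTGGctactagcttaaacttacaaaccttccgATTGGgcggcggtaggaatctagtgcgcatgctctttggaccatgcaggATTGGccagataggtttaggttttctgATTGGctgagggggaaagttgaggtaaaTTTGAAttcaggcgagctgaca
Ect2 (chr3:27153825-27154004, minus strand, GRCm38.p6): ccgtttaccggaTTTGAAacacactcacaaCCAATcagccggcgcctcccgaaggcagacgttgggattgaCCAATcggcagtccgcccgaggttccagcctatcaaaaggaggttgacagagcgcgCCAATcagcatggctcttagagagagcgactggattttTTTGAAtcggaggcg
Most of these stretches hold more than 1 CCAAT match. Ube2c and Top2a held the most CCAAT matches, 6 each in the full window. Mki67 carried a pair of TTTGAA matches before its start site, at -116 and -98, and so no CHR match within 50 bases of it. In Cdc20 a CCAAT match lay after the CHR match. Mad2l1 and Nusap1 held neither element in the window, and Kif2c, Birc5 and Anln held a CHR match only. The Kif2c window (chr4:117178723-117179022, minus strand) lay inside the gene, whose exons reach 117182639. So did the Cdca8 window (chr4:124936868-124937167, minus strand), where exons reach 124939311. The Kif4 window (chrX:100625815-100626114, plus strand) lay inside a gene whose exons begin at 100625737. No window at those outer ends was searched. The Mad2l1 window (chr6:66534971-66535270, plus strand) ended before the first counted exon base, 66535390.

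Per kilobase of exon, the proliferation marker Mki67, which coats mitotic chromosomes, stood highest of the 35 genes. On this scale (RPKM, CPM per kilobase of summed exon) its level was 24.7 ± 0.694 with control IgG and 25.3 ± 0.0557 with anti-CD93 (SD, n = 2 each, as for all ± values here). Top2a, the topoisomerase that untangles chromosomes, followed at 12.2 ± 0.293 and 12.3 ± 0.0941 RPKM. The spindle gene Tpx2 was at 11.9 ± 2.80 and 10.3 ± 0.987 RPKM and the cyclin gene Ccnb2 at 11.7 ± 1.71 and 9.74 ± 1.25 RPKM. With control IgG, Top2a, Tpx2 and Ccnb2 overlapped. With anti-CD93, both Top2a values lay above those of Tpx2 and Ccnb2, which overlapped each other. The lowest were Mad2l1 at 0.952 ± 0.318 and 1.10 ± 0.154 RPKM and Cdc25c at 0.745 ± 0.116 and 0.519 ± 0.127 RPKM. The B cyclins lay far apart, since Ccnb1 was at 2.21 ± 0.423 and 2.22 ± 0.511 RPKM, below Ccnb2 in every library. Read numbers behind these levels ran from 29 to 53 per library for Cdc25c and from 2276 to 4510 for Mki67.

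**Figure D2:**
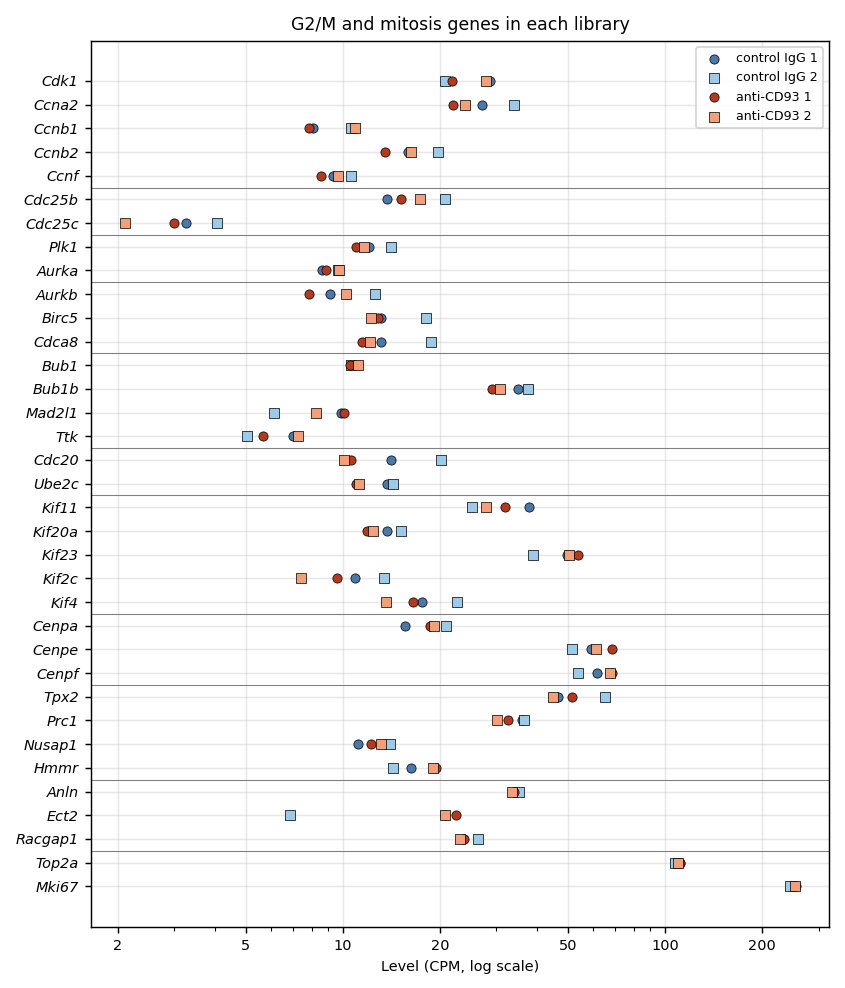
Level in CPM on a log axis of each of the 35 genes in the 2 control IgG libraries (blue) and the 2 anti-CD93 libraries (dark red and orange), with grey lines between roles. Mki67 and Top2a stand above 100 CPM in every library, and the pale blue squares of control IgG replicate 2 are the ones most often at an edge, as for Ect2 at 6.85 CPM against 20.7 to 22.5 CPM in the others.

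As a sum, the genes differed little in the 4 libraries, with both anti-CD93 libraries below both controls. Their summed level was 1072, 1079, 1062 and 1051 CPM in the 4 libraries (control IgG 1075 ± 4.71, anti-CD93 1056 ± 7.86), and the highest library exceeded the lowest by 2.68%. Mki67 alone made up 22.6% to 24.2% of this sum. Without Mki67 and Top2a the sum was 707, 727, 696 and 687 CPM, again with both anti-CD93 libraries below both controls (717 ± 14.3 against 691 ± 6.45). In the full sum, control IgG replicate 1 lay closer to anti-CD93 replicate 1 than the anti-CD93 libraries lay to each other. The sums were not tested between groups. In bulk RNA, the number of dividing cells and the RNA per dividing cell cannot be told apart.

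**Figure D3:**
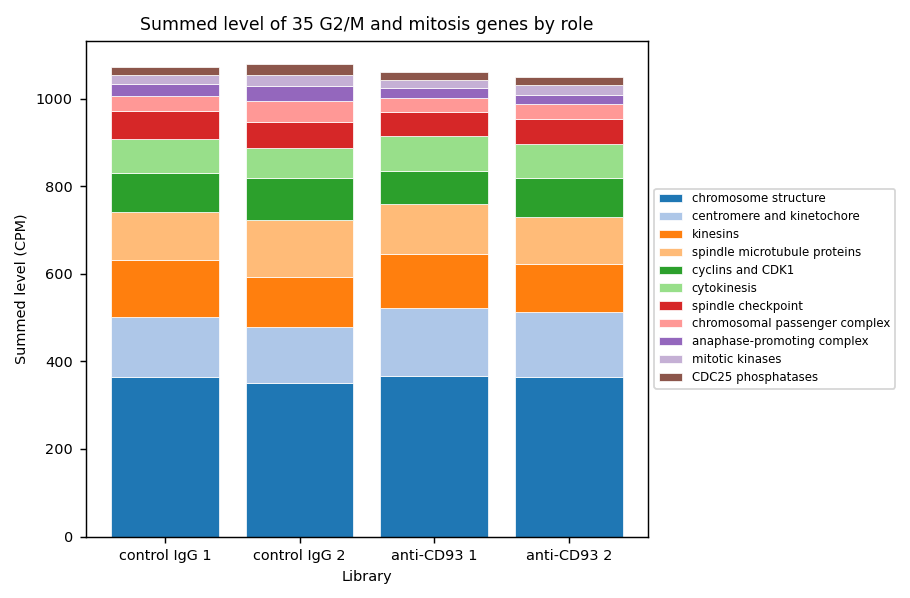
Summed level in CPM of the 35 genes in each library, stacked by role, on an axis from 0. The totals run from 1051 to 1079 CPM, and Mki67 and Top2a (chromosome structure) make up 351 to 366 CPM of each.

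None of the 35 genes passed the test between the groups. With edgeR's quasi-likelihood test and Benjamini-Hochberg adjustment over all genes, 0 of 35 had an adjusted p under 0.05, and 0 of all 16945 tested genes did (0%). The smallest adjusted p of a member was 0.812. DESeq2 and limma-voom also called 0 of the 35, and 4 and 0 of all tested genes. At an unadjusted p under 0.05 there was 1 member, Cdc20, against 4.49% of all tested genes. The log2 change lay below 0 in 20 members and above 0 in 15, with a median of -0.081, against 50.9% below 0 and a median of -0.0092 over all tested genes. The members' median depended on single libraries: it was -0.18 without control IgG replicate 1, -0.031 without control IgG replicate 2, -0.039 without anti-CD93 replicate 1 and -0.15 without anti-CD93 replicate 2. After removal of each library's trend with GC content and gene length, an alternative added once the data had been seen, 27 lay below 0 and 8 above, with a median of -0.18 and still 0 called, against 53.7% below 0 and a median of -0.025 over all tested genes in that fit. In 13 members both anti-CD93 libraries lay below both controls (37.1% of them, against 19.7% of all tested genes), and in 5 they lay above (14.3%, against 20.1%). The groups thus did not overlap in 18 members, or 51.4% of them, against 39.8% of all tested genes. Set against control IgG replicate 1 alone, both anti-CD93 libraries lay below it in 16 of 35 (45.7%, against 35.3%) and above it in 9 (25.7%, against 36.1%).

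**Figure D4:**
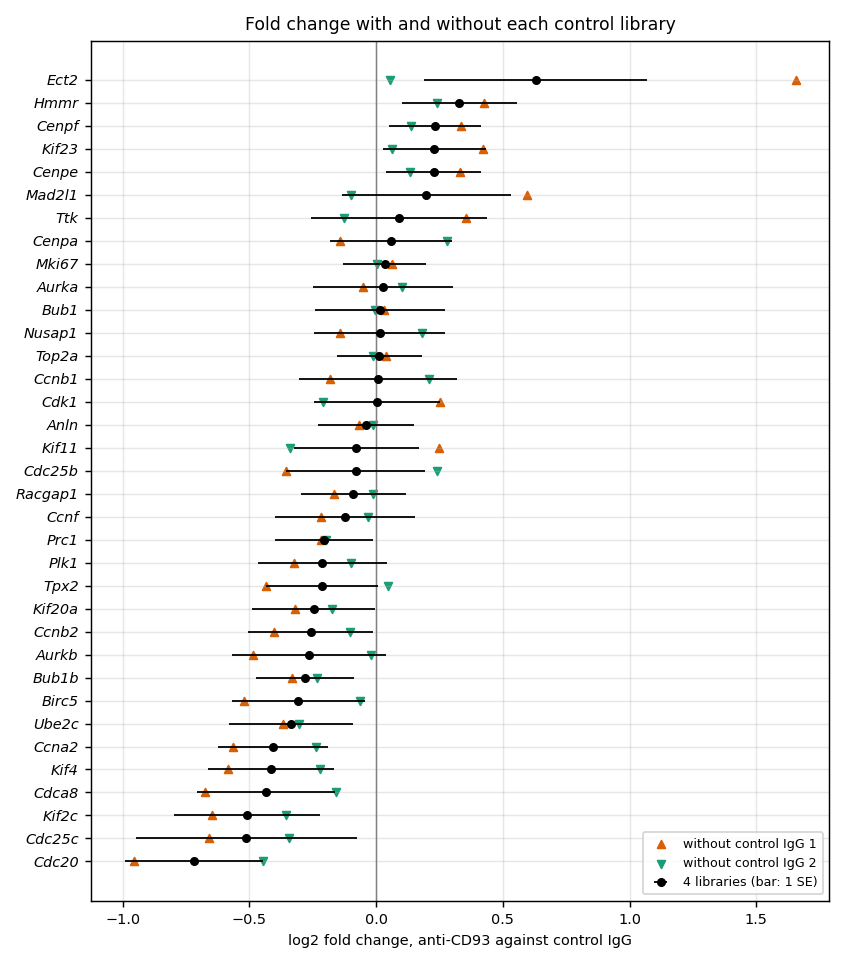
Log2 fold change of anti-CD93 over control IgG for each gene, with all 4 libraries (black, bar of 1 SE), without control IgG replicate 1 (orange) and without control IgG replicate 2 (green). The values run from -0.72 for Cdc20 to 0.63 for Ect2. Without control IgG replicate 2 these genes were at -0.45 and 0.054. Some others moved away from 0, such as Kif11 from -0.078 to -0.34 and Cenpa from 0.058 to 0.28.

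Of CDK1 and the cyclins, only Ccna2 separated the groups. Ccna2 encodes cyclin A2, which works in S phase and at mitotic entry, and was at 27.0, 33.9, 21.98 and 23.98 CPM (log2 fold change -0.41, SE 0.22, and -0.24 without control IgG replicate 2). With the GC and length trend removed the value was -0.51. Both controls lay above both anti-CD93 libraries, with the highest value in control IgG replicate 2. About 12.5% of its exon bases are shared with Exosc9 on the opposite strand, and counting ignored strand. Cdk1, the kinase that drives mitotic entry, was at 28.6, 20.8, 21.8 and 27.8 CPM (0.0024, SE 0.25). Ccnb1 and Ccnb2, the cyclins that activate it in mitosis, were at 8.08, 10.6, 7.85 and 10.9 CPM and at 16.0, 19.7, 13.6 and 16.3 CPM. The groups overlapped for these 3 genes, and for Cdk1 and Ccnb1 the 2 libraries of a group differed more than the group means. Ccnf, the substrate receptor of a ubiquitin ligase, also overlapped, at 9.30, 10.6, 8.59 and 9.66 CPM. Among the phosphatases that switch CDK1 on, Cdc25b was at 13.7, 20.8, 15.1 and 17.4 CPM and Cdc25c at 3.26, 4.07, 2.99 and 2.11 CPM. Cdc25c did not overlap between groups (-0.51, SE 0.44, and -0.69 with the GC and length trend removed). It had, however, the fewest reads of all 35 genes, and 12.7% of its exon bases are shared with Gm3550 on the opposite strand.

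The anaphase-promoting complex pair held the largest downward value. Cdc20 (chromosome 4, 118432901 to 118437352, GRCm38), the activator that the checkpoint restrains, was at 14.1, 20.1, 10.6 and 10.1 CPM, with group means of 17.1 ± 4.25 and 10.4 ± 0.369 CPM. Both anti-CD93 libraries lay below both controls (log2 fold change -0.72, SE 0.27, adjusted p = 0.812 by edgeR). Control IgG replicate 2 held the top value, and without it the log2 fold change was -0.45 (SE 0.23). With all libraries and the GC and length trend removed the value was -0.54 (SE 0.21). Ube2c, which supplies ubiquitin to the complex, was at 13.7, 14.3, 11.0 and 11.3 CPM (-0.34, SE 0.25). Its controls differed by less than their distance from the anti-CD93 libraries, and the value was -0.30 without control IgG replicate 2 but -0.17 with the GC and length trend removed. Of its exon bases, 22.8% are shared with Tnnc2 on the opposite strand.

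The genes of the chromosomal passenger complex, which corrects faulty attachments and guides cytokinesis, all had values below 0. Cdca8 (borealin) was at 13.1, 18.8, 11.5 and 12.1 CPM, Birc5 (survivin) at 13.1, 18.1, 12.9 and 12.3 CPM and the kinase gene Aurkb at 9.14, 12.6, 7.85 and 10.2 CPM. In each, control IgG replicate 2 stood above the other 3 libraries. The summed level of the 3 genes was 42.5 ± 10.01 CPM with control IgG against 33.4 ± 1.74 with the antibody. The log2 fold changes were -0.43, -0.31 and -0.26 with all libraries and -0.16, -0.062 and -0.021 without that control. With all libraries and the GC and length trend removed they were -0.47, -0.37 and -0.14. Plk1, a kinase for spindle and exit steps, was at 12.1, 14.1, 11.0 and 11.6 CPM, and Aurka, the kinase of the spindle poles, at 8.65, 9.63, 8.87 and 9.74 CPM. Plk1 did not overlap between groups (-0.21, SE 0.25, and -0.028 with the GC and length trend removed), and Aurka did (0.026, SE 0.28).

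Of the spindle checkpoint genes, Bub1b separated the groups and the other 3 did not. Bub1b (BUBR1, which with MAD2 forms the inhibitor of the anaphase-promoting complex) was at 35.1, 37.6, 29.0 and 30.7 CPM (log2 fold change -0.28, SE 0.19). The libraries of each group lay closer to each other than to the other group, and the value was -0.23 without control IgG replicate 2. Bub1, a kinetochore kinase, was at 10.8, 10.6, 10.6 and 11.1 CPM, nearly equal in the 4 libraries. Mad2l1 (MAD2) was at 9.87, 6.10, 10.1 and 8.28 CPM and Ttk (MPS1, the kinase that starts checkpoint signalling) at 7.02, 5.03, 5.65 and 7.27 CPM. Control IgG replicate 2 was lowest for Mad2l1 and Ttk.

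The kinesins split. Kif2c, which takes microtubules apart at centromeres, was at 10.9, 13.4, 9.60 and 7.41 CPM (log2 fold change -0.51, SE 0.29), and the chromokinesin gene Kif4 at 17.6, 22.7, 16.6 and 13.6 CPM (-0.42, SE 0.25, and -0.22 without control IgG replicate 2). Kif20a, a motor of the central spindle, was at 13.7, 15.2, 11.9 and 12.4 CPM (-0.25, SE 0.24). The anti-CD93 libraries lay lower without overlap for these 3 genes. With the GC and length trend removed the values of Kif2c, Kif4 and Kif20a were -0.46, -0.44 and -0.26. Of the exon bases, 29.3% in Kif20a are shared with Cdc23 and 15.1% in Kif4 with Pdzd11, both on the opposite strand. Kif23, the motor of centralspindlin in the cleavage furrow, lay higher without overlap, at 49.8, 38.9, 53.8 and 50.2 CPM (0.23, SE 0.20). Its gap rested on control IgG replicate 2, and the value without that library was 0.064, or 0.13 with the GC and length trend removed. Kif11, which pushes spindle poles apart, was at 37.8, 25.2, 31.8 and 27.9 CPM and overlapped.

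The centromere and kinetochore genes had values above 0, with a summed level of 131 ± 7.12 CPM with control IgG against 152 ± 5.29 with the antibody. Cenpf, which binds the outer kinetochore, was at 61.7, 53.8, 68.2 and 67.6 CPM (log2 fold change 0.23, SE 0.18), and Cenpe, a kinetochore motor that aligns chromosomes, at 59.1, 51.6, 68.5 and 61.2 CPM (0.23, SE 0.19). Both anti-CD93 libraries lay above both controls, and without control IgG replicate 2 the values were 0.14 and 0.13. With the GC and length trend removed they were 0.035 and 0.016. Cenpa, the histone variant that marks centromeres, was at 15.6, 20.9, 18.7 and 19.2 CPM and overlapped.

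Of the spindle proteins, Hmmr showed the same order as Cenpf and Cenpe. Hmmr, a microtubule protein that is also known as a hyaluronan receptor, was at 16.3, 14.3, 19.5 and 19.0 CPM (log2 fold change 0.33, SE 0.23, and 0.24 without control IgG replicate 2). With the GC and length trend removed its value was 0.089. The libraries of each group lay close together and the groups did not overlap. Tpx2, which activates Aurora A on the spindle, was at 46.6, 65.1, 51.4 and 44.8 CPM. Prc1, which bundles microtubules of the central spindle, was at 35.9, 36.4, 32.5 and 30.1 CPM (-0.21, SE 0.19, -0.20 without control IgG replicate 2 and -0.42 with the GC and length trend removed). For Tpx2 the anti-CD93 libraries fell on both sides of control IgG replicate 1, whereas for Prc1 both lay below both controls. Of the exon bases of Prc1, 11.1% are shared with Rccd1 on the opposite strand. Nusap1, which binds spindle microtubules, was at 11.2, 14.02, 12.3 and 13.2 CPM and overlapped.

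Ect2 had the largest upward value, and a single library set it. Ect2 (chromosome 3, 27097222 to 27153878, GRCm38), the exchange factor that activates RhoA at the cleavage furrow, was at 20.8, 6.85, 22.5 and 20.7 CPM (log2 fold change 0.63, SE 0.44). Control IgG replicate 2 alone was low, with 64 reads against 255 to 398 in the others, and control IgG replicate 1 lay between the anti-CD93 libraries. Without control IgG replicate 2 the value was 0.054 (SE 0.18), and without control IgG replicate 1 it was 1.66 (SE 0.23, adjusted p = 9.31e-04 by edgeR). Its partner Racgap1, the RhoA regulator of centralspindlin, was at 23.6, 26.2, 23.7 and 23.0 CPM, and Anln, which scaffolds the contractile ring, at 34.0, 35.3, 33.9 and 33.6 CPM. These 2 genes did not show the drop in control IgG replicate 2. With the GC and length trend removed, the values of Ect2 and Anln were 0.42 and -0.18, against 0.63 and -0.039.

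The most deeply read genes gave the tightest values. Mki67 (chromosome 7, 135689784 to 135716361, GRCm38) was at 253.5, 243.7, 254.8 and 254.0 CPM (log2 fold change 0.033, SE 0.16), and Top2a at 111, 108, 111 and 109.9 CPM (0.013, SE 0.17). For Mki67 both anti-CD93 libraries lay above both controls, but the gap to control IgG replicate 1 was far smaller than the gap between the controls. With the GC and length trend removed the values were -0.070 and -0.19.

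The genes were spread most widely in control IgG replicate 2. That library held the highest of the 4 values in 21 of the 35 genes and the lowest in 11, against 38.7% and 38% of all tested genes. Its log2 distance from the mean of the other 3 libraries ran from -1.62 for Ect2 to 0.80 for Cdc20, with an SD over the genes of 0.46. The distance of control IgG replicate 1 from the mean of the anti-CD93 libraries had an SD of 0.19, and that of anti-CD93 replicate 2 from replicate 1 had an SD of 0.21. In the same order, the SDs over all tested genes were larger, at 0.79, 0.47 and 0.46. Over all tested genes 3.75% lay as far down as Ect2 or further in control IgG replicate 2.

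GC content moved with this distance. Across the 35 genes, the distance of control IgG replicate 2 correlated with the GC content of the longest transcript (Pearson r = 0.61, Spearman rho = 0.65), and across 16615 tested genes with a GC value r was 0.46. With the log2 of exon length, r was -0.46 across the 35 genes but 0.075 across the 16615. These points share the same 4 libraries and genes are not independent replicates. The 23 genes in which it lay above the mean of the other 3 libraries had a median GC of 48.4% and a median exon length of 4275 bases, and the 12 in which it lay below that mean had medians of 43% and 7681 bases. Ect2, Mad2l1, Kif11, Hmmr, Cenpe and Cenpf were among those 12, while Nusap1, at a like GC content of 41.8%, was among the 23. In the order of the 4 libraries, the 23 genes summed to 405, 494, 383 and 386 CPM. The 12 genes summed to 667, 585, 678 and 665 CPM. The nearly equal total of control IgG replicate 2 thus held shifts in both directions. In the fit without control IgG replicate 2, 17 of the 23 and 6 of the 12 lay lower with anti-CD93, with medians of -0.099 and 0.000060. Over all tested genes 49.4% lay lower in that fit. The anti-CD93 libraries are part of the mean that split the genes, so these counts and sums are not independent of the split. The part of GC content and length in these values was not tested beyond the fit with the trend removed.

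**Figure D5:**
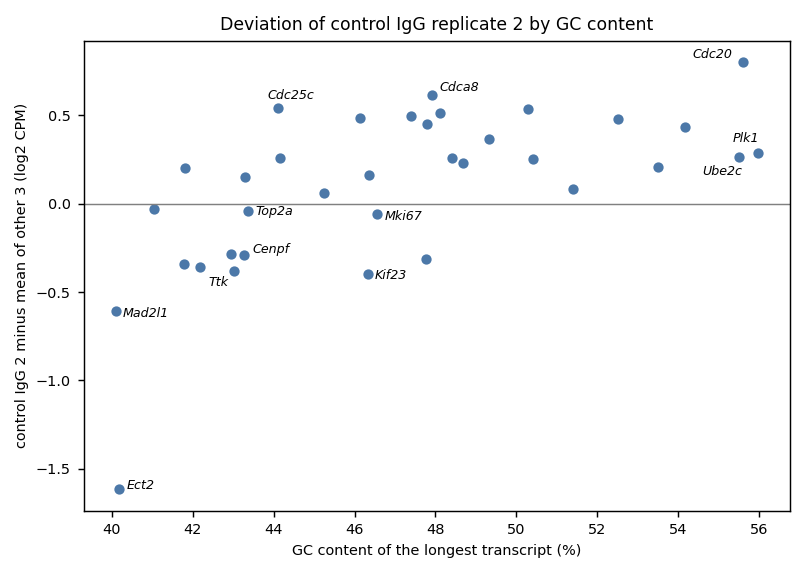
Log2 CPM of control IgG replicate 2 minus the mean of the other 3 libraries (vertical) against GC content in percent of the longest transcript (horizontal), 1 point for each of the 35 genes. Ect2 lies lowest at -1.62 with 40.2% GC and Cdc20 highest at 0.80 with 55.6% GC.

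When control IgG replicate 2 stood alone for its group, without control IgG replicate 1, 6 of the 35 genes passed edgeR's test, against 26.8% of all tested genes. Cdc20 (log2 fold change -0.96, adjusted p = 0.00942), Cdca8 (-0.68, adjusted p = 0.0396), Ccna2 (-0.56, adjusted p = 0.0271) and Tpx2 (-0.43, adjusted p = 0.0333) were lower, and Ect2 and Kif23 (0.42, adjusted p = 0.0412) were higher with anti-CD93. Without control IgG replicate 2, 0 of the 35 passed, against 0.0767% of all tested genes. In these fits the lone control is assumed to vary like the anti-CD93 libraries. Without control IgG replicate 2 the values of Tpx2, Cdca8 and Kif23 were 0.047, -0.16 and 0.064.

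Other genes of G2 and mitosis, from a list of 72 that holds none of the 35, were also not called. All 72 were tested and 0 passed in either direction. The log2 change lay below 0 in 50 and above 0 in 22, against 50.9% below 0 over all tested genes. Their median was -0.15, against -0.0092 over all tested genes, and it was -0.12 without control IgG replicate 2. The 3 with the smallest p were Pimreg, a mitotic regulator, at 9.95, 16.6, 7.80 and 6.76 CPM, Iqgap3, a scaffold protein of dividing cells, at 27.7, 31.5, 20.8 and 20.3 CPM, and Kif18b, a motor on astral microtubules, at 7.34, 10.4, 5.88 and 3.56 CPM. Each lay lower in both anti-CD93 libraries (log2 fold changes -0.86, -0.52 and -0.90, adjusted p = 0.812 by edgeR for each). Without control IgG replicate 2 the values were -0.45, -0.43 and -0.63.

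Of 23 regulators of these promoters (FOXM1, B-MYB, MuvB, E2F, RB and NF-Y proteins), 0 passed, 12 lay below 0 and 11 above, with a median of -0.019. That median was 0.16 without control IgG replicate 1 and -0.051 without control IgG replicate 2. Foxm1, the activator of G2/M genes, was at 28.2, 47.5, 24.7 and 24.6 CPM (log2 fold change -0.62, SE 0.27). Its controls differed widely, and without control IgG replicate 2 the value was -0.20. E2f8, a repressor of the E2F family, was at 10.2, 10.1, 6.16 and 6.97 CPM (-0.63, SE 0.29) and did not rest on that library (-0.64 without it). Rb1, which restrains E2F factors, was at 54.9, 25.2, 69.3 and 69.0 CPM (0.78, SE 0.33, and 0.33 without control IgG replicate 2).

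Of 16 cell cycle inhibitors and stress genes 0 passed, 7 lay below 0 and 9 above, with a median of 0.15, or 0.038 without control IgG replicate 2. The 3 with the smallest p were Gadd45g, Gadd45b and Trp53, with log2 fold changes of -0.62, -0.63 and -0.38, and without control IgG replicate 2 of -0.13, -0.19 and -0.23. Of 36 genes of G1/S and DNA replication 0 passed, 29 lay below 0 and 7 above, against 50.9% below 0 over all tested genes. Their median was -0.28, or -0.11 without control IgG replicate 2. Ccnd2, the gene of cyclin D2, went the other way from the replication genes, at 55.7, 50.1, 103 and 77.4 CPM (0.77, SE 0.21), while Cdc45 was at 9.95, 14.5, 4.12 and 6.32 CPM and Mcm5 at 32.2, 47.7, 21.9 and 26.01 CPM (-1.23 and -0.74, and -0.94 and -0.43 without control IgG replicate 2). The difference between the G1/S and the mitosis genes was not tested.

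The sort held more than endothelial RNA. All 10 endothelial markers were present, with summed levels of 9046 and 11030 CPM in the controls and 8872 and 9098 CPM in the anti-CD93 libraries, Pecam1 alone reaching 1661 to 1872 CPM. In 7 of the 10 both anti-CD93 libraries lay below both controls, and in 0 above, against 19.7% and 20.1% of all tested genes. All 8 markers of the tumour epithelium were present too. Their sums were 1738 and 2515 CPM in the controls and 2458 and 2064 CPM with anti-CD93, with Krt8 at 617 to 937 CPM. In 3 of the 8 both anti-CD93 libraries lay above both controls, against 20.1% of all tested genes. Each of the 3 had an unadjusted p under 0.05 and an adjusted p of 0.812 by edgeR. These were Cdh1 at 216, 210.4, 351 and 290.03 CPM, Muc1 at 35.2, 48.1, 78.5 and 72.0 CPM and Epcam at 21.7, 23.4, 34.1 and 41.1 CPM. All 5 fibroblast markers were present (1275 to 1940 CPM summed), as were all 5 pericyte markers (327 to 445 CPM). The collagen genes Col1a1 (819 to 1245 CPM) and Col1a2 (429 to 662 CPM) held most of the fibroblast sum. Pdgfra was at 11.1 to 14.6 CPM, Dcn at 11.0 to 17.2 CPM and Lum at 3.64 to 4.94 CPM. Of the pericyte markers 3 lay lower with anti-CD93 without overlap, against 19.7% of all tested genes. The 5 erythroid markers summed to 9.22, 19.5, 28.4 and 18.8 CPM, and 2 of them lay higher with anti-CD93 without overlap, against 20.1% of all tested genes. Of 7 leukocyte markers 3 passed the filter, at 11.7 to 26.04 CPM summed, Ptprc (CD45) was at 2.32 to 5.08 CPM, and Cd3e and S100a8 each had 0 reads in 1 library. The epithelial sum was lowest in control IgG replicate 1 and the endothelial sum highest in control IgG replicate 2. KPC cells divide too. The part of each cell type in the mitotic messages was not tested.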

How the data were processed

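RNA was measured in 4 libraries, 2 per group. The deposited values are raw counts per gene name, made by the authors with featureCounts 2.0.1 on GENCODE vM25, per the file headers, with neither a paired-end nor a strand option. The libraries were stranded and read from both ends, per the labels' protocols, and the build was GRCm38. STAR 2.7.5b and DESeq2 1.28.1 are named in the submitters' processing notes. The second deposited table, whose name says normalized, equals the first (0 of 221468 cells differed). The members and lists were chosen with earlier results of these data known.

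The filter was filterByExpr (minimum count 10) and the scaling TMM. Groups were tested by quasi-likelihood in edgeR 4.0.16 (R 4.3.3, robust dispersion, group as the only term), checked on simulated data. SE is the size of the log2 fold change over the square root of F. Each mate was counted on its own, so counting error is larger than the counts imply. The gene length in the deposited table (other values, in bases) gave RPKM. Promoters came from RefSeq (GRCm38.p6) and GC content from GENCODE transcripts, with 98.05% of tested genes covered. Exon bases of 13 of the 35 genes overlap another gene.

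Named genes were all 35 members, Cd93, Pecam1 and Ptprc, and the 3 genes of each further list with the smallest p and a mean of at least 5 CPM. Alternatives were RLE or total-read scaling, no filter or a minimum of 50, DESeq2 1.42.0, limma-voom 3.58.1, a replicate block, halved counts, no robust dispersion, a threshold of 0.1, each library left out, a shorter promoter window and, chosen after the data were seen, removal of the GC and length trend.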

Additional observations from a re-analysis of the deposited data

How the results depend on the processing

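With 2 libraries per group, of which 1 control stood apart, the SE of the members ran up to 0.44 on the log2 scale. The count of members past the test was 0 under every alternative that kept all 4 libraries, and 0 to 6 with 1 library left out (6 without control IgG replicate 1). Of all genes, 48 passed with no count filter, 4 by DESeq2 and 14 with the replicate number as a block, and 0 to 4549 with 1 library left out. Members with a log2 change below 0 numbered from 19 to 27 over these alternatives.

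The labels give no shared mouse, batch or day for same-numbered libraries. Their deviations from the group means correlated at -0.016 over 16945 genes. With 2 libraries per group, that value rests on the difference within each group, and control IgG replicate 2 stood apart. It therefore cannot decide whether libraries were paired. The replicate block called 0 of the 35 members and turned Ccnb1 to -2.7e-05. Some values near 0 changed sign. With total reads only, Cdk1 was at -0.0045 and Ccnb1 at -0.00041. By limma-voom they were at -0.0098 and -0.0026. With no count filter Anln was at 0.0092 and Cd93 at 0.025. With the GC and length trend removed, Cdk1 was at -0.034, Ccnb1 at -0.17, Cdc25b at 0.093, Bub1 at -0.27, Mad2l1 at -0.067, Ttk at -0.090, Top2a at -0.19, Mki67 at -0.070, Nusap1 at -0.26 and Ptprc at -0.27.

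With 1 library left out, the log2 fold change ran from -0.053 to 0.10 for Aurka, -0.022 to 0.059 for Bub1, -0.25 to 0.23 for Ccnb1, -0.12 to 0.077 for Cd93, -0.36 to 0.24 for Cdc25b, -0.21 to 0.25 for Cdk1, -0.14 to 0.28 for Cenpa, -0.34 to 0.25 for Kif11, -0.099 to 0.60 for Mad2l1, -0.14 to 0.18 for Nusap1, -0.58 to 0.66 for Ptprc, -0.013 to 0.037 for Top2a, -0.43 to 0.047 for Tpx2 and -0.13 to 0.35 for Ttk. Other named genes kept their sign under these alternatives. The cause was not tested. With the shorter promoter window, 28 instead of 30 of the 32 promoters held a CHR or CCAAT match.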
